A study of Glycine max with 47 samples.

Results

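The 200 genes described here are those whose transcripts were lower at 30 than at 5 days post aphid infestation (dpi) in soybean roots of every cultivar and treatment sampled. They were chosen from the 55983 genes of the deposited table. Estimated counts were scaled to CPM, which relates a gene's counts to the total of its library, and the median of log2(CPM + 1) over the libraries of a group at 30 dpi was subtracted from the median at 5 dpi. This was done in each of the 8 combinations of cultivar and treatment, each called a pair below. The smallest of the 8 differences was the score of a gene, and the 200 highest scores were taken. Members are numbered by that score, rank 1 being the highest. Because the contrast of 5 with 30 dpi chose the genes, its values are given as a description and were not tested.

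RNA came from whole roots of *Glycine max* grown in cone-tainers in a greenhouse, in 47 libraries. The 16 groups held 3 libraries each, or 2 for MN1806CN controls at 30 dpi. PI518671 (Williams 82) is susceptible to soybean cyst nematode (SCN; *Heterodera glycines*) of HG type 0, MN1806CN is resistant to it, and both are susceptible to soybean aphid (SBA; *Aphis glycines*, biotype 1). Each cultivar received SCN (eggs in the soil at planting), SBA (aphids placed on a leaf at the second vegetative stage), both (SCN:SBA) or neither (control), and roots were taken at 5 and 30 dpi. Cone-tainers were thinned to one plant, and the study calls the libraries of a group biological replicates. Plants of the 2 time points stood in different water baths, so age, days of infestation and water bath cannot be told apart in any difference between 5 and 30 dpi.

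The SCN juvenile enters the root, settles at the vascular cylinder and induces a fused feeding cell, the syncytium, which the female drains until her body becomes an egg-filled cyst. The SBA feeds from the phloem of leaves and stems, so a change in the roots of an aphid-infested plant is systemic. A root grows from its tips and leaves ageing tissue behind them, and whole roots at different ages therefore mix young and mature tissue in different parts. In RNA from a whole organ, fewer cells of a type and less RNA per cell cannot be told apart. The files give genes by Glyma identifiers only, and none of the 55983 could be paired with a gene name or a product in the annotation at hand. The members are therefore described by identifier or rank, chromosome and values, without functions, and the root origin of the libraries was not checked with marker genes. The chromosome is read from the number in the identifier, which follows the soybean naming convention.

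Total counts ranged from 8472717 to 47902174 per library. PI518671 control replicates 2 and 3 at 5 dpi stood apart from the other libraries. The 100 most abundant genes held 29.6% and 23.2% of their counts, against 9.13% to 20.7% in the remaining libraries. Over all genes past the filter, their medians of log2(CPM + 1) were 1.94 and 1.96, whereas those of the other 5 dpi libraries were between 2.59 and 3.20. The count of members called among treatments in PI518671 at 5 dpi is given with them, without each in turn and without all 3 controls. No fit left out these replicates together, and fold changes of single members there are given with them only.

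The members were moderately expressed genes whose share of root RNA fell between the sampling times. Together they took 0.444% to 1.61% of the counts of a library at 5 dpi (median 0.949%, n = 24) and 0.267% to 0.615% at 30 dpi (median 0.342%, n = 23). Only 4 of the 30 dpi libraries entered the 5 dpi range. The 3 MN1806CN SCN:SBA libraries at 30 dpi had 0.489%, 0.5005% and 0.615% and MN1806CN SCN replicate 3 had 0.460%, and the 3 PI518671 SCN libraries at 5 dpi had 0.444%, 0.560% and 0.674%. Without the 8 most abundant members the shares of the SCN:SBA and PI518671 SCN libraries were 0.328% to 0.422% and 0.265% to 0.394%, so the overlap did not rest on a few abundant transcripts. The median level of a member over all libraries of a time was 16.8 CPM at 5 dpi and 5.49 CPM at 30 dpi, taken at the middle of the 200. Levels at 5 dpi ranged from 0.862 to 744 CPM, and those at 30 dpi from 0.129 to 455 CPM. All 200 members passed the filter of 0.5 CPM in at least 1 library, 16 had a 30 dpi median under 1 CPM, and 7 had a count of 0 in at least 1 library at 30 dpi.

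**Figure D1:**
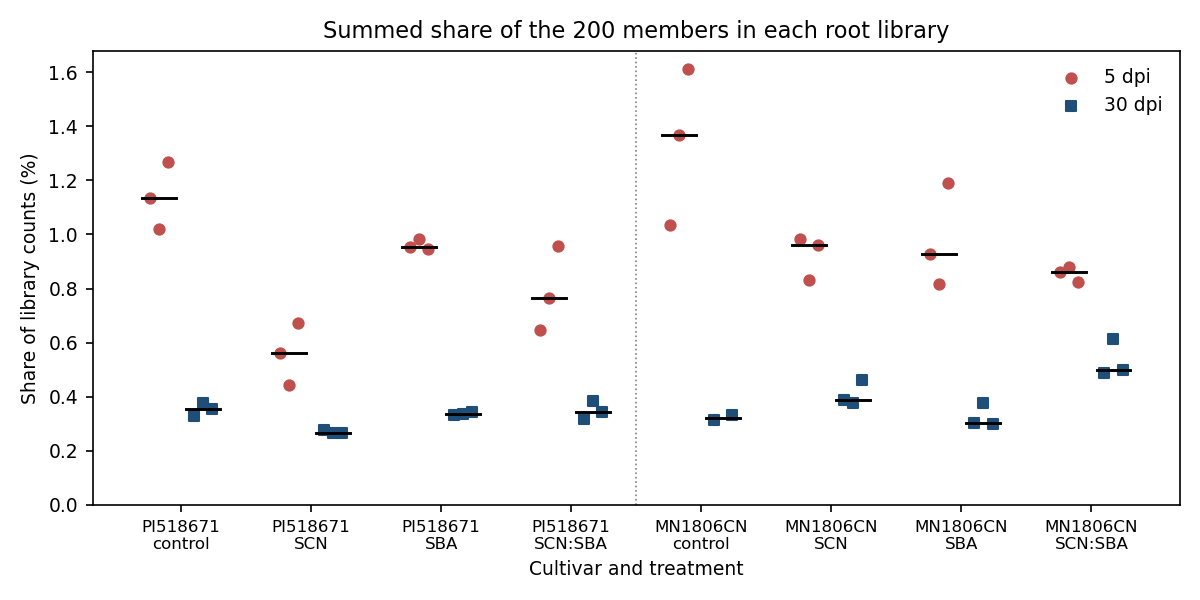
Share of each library's counts taken by the 200 members (y axis, %), by cultivar and treatment (x axis). Each point is a library, red circles 5 dpi and blue squares 30 dpi, and bars are group medians. The 5 dpi libraries lie between 0.444% and 1.61% and the 30 dpi libraries between 0.267% and 0.615%, with PI518671 SCN lowest at 5 dpi and MN1806CN SCN:SBA highest at 30 dpi.

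A gene lower at 30 dpi in all 8 pairs was uncommon, as 2074 genes (3.70% of the table) had a score above 0, and 2014 genes were higher at 30 dpi in all 8. The scores fell quickly from 2.36 at rank 1 to a median of 0.48, with only 6 members at 1 or more. The last 2 members had scores of 0.3704 and 0.3697, and the first 2 genes outside 0.3665 and 0.3660, so the last member differs little from the first gene left out. On the log2(CPM + 1) scale the score of rank 200 corresponds to a 1.29-fold difference in the pair where it was smallest.

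The size of the difference depended on the pair. The median over members was largest in the MN1806CN control (1.79) and MN1806CN SBA (1.71) pairs, and smallest in MN1806CN SCN:SBA (0.72) and PI518671 SCN (0.73). The medians were 1.48 in PI518671 SBA, 1.17 in PI518671 control, 1.15 in MN1806CN SCN and 1.06 in PI518671 SCN:SBA. Over all genes past the filter the medians lay between -0.28 in the PI518671 control pair and 0.31 in the PI518671 SBA pair. The score of a member was set in the MN1806CN SCN:SBA pair for 63 members and in the PI518671 SCN pair for 56, and in the MN1806CN control pair for only 3.

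**Figure D2:**
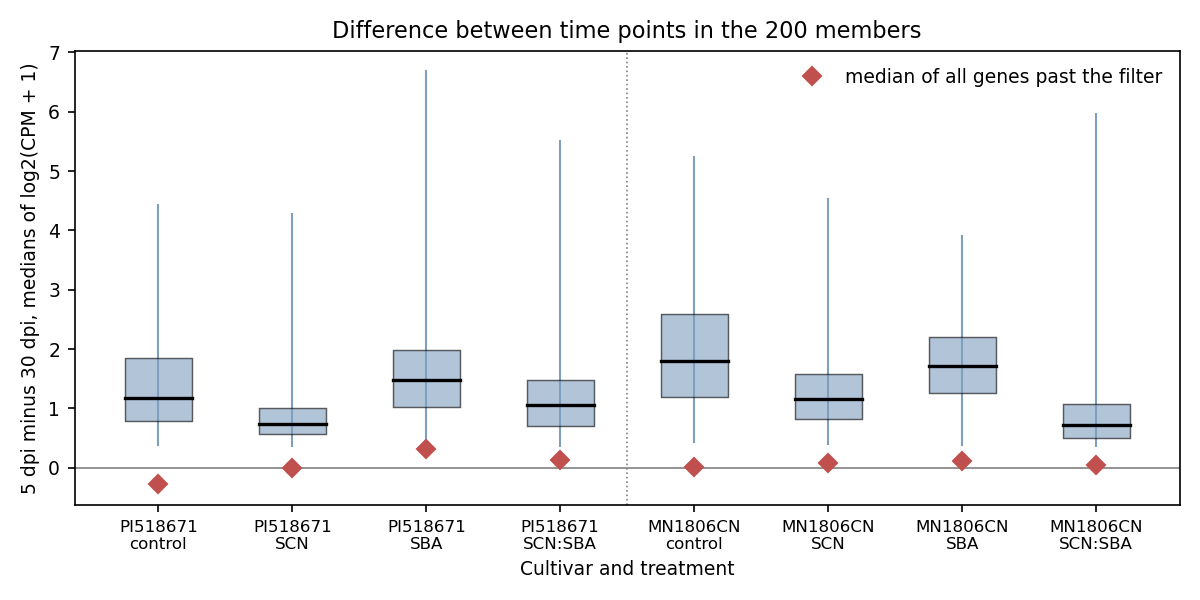
Difference between the 5 and 30 dpi group medians of log2(CPM + 1) (y axis) for the 200 members in each cultivar and treatment (x axis). Boxes span the quartiles with the median as a line, thin lines run from the lowest to the highest member, and diamonds are the medians of all genes past the filter. The member medians run from 0.72 in MN1806CN SCN:SBA to 1.79 in the MN1806CN control, and all differences are above 0 by the rule.

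The rule compares medians, so libraries may still overlap. In 1243 of the 1600 combinations of member and pair, every 5 dpi library was above every 30 dpi library. Within a single pair this held for 12.5% (PI518671 SCN) to 28.2% (MN1806CN SBA) of all genes past the filter. For 26 members this held in all 8 pairs, and for 77 in 7 of them. Over all genes tested 0.128% had no overlap in all 8 pairs with 5 dpi higher, and since the rule used this contrast nothing is read from the difference. Only for Glyma.11g195200, rank 2, did the lowest of the 24 libraries at 5 dpi (9.10 CPM) exceed the highest of the 23 at 30 dpi (8.78 CPM).

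Glyma.13g323800 on chromosome 13 and Glyma.11g195200 on chromosome 11 had the highest scores, 2.36 and 2.11. In PI518671 roots at 5 dpi, Glyma.13g323800 had 181, 18.1 and 16.5 CPM in the control, 36.0, 9.99 and 50.9 under SCN, 39.2, 255 and 152 under SBA, and 6.65, 46.2 and 118 under SCN:SBA. At 30 dpi the same groups had 1.62, 1.34 and 1.19, then 0.570, 8.08 and 3.16, then 0.571, 2.74 and 0.411, then 0.792, 0.459 and 0.515 CPM. Replicates of the 5 dpi control and SCN:SBA groups thus differed by more than 10-fold, yet within each of the 4 pairs every 5 dpi library was above every 30 dpi library. In MN1806CN the 5 dpi values were 13.3, 12.8 and 28.3 in the control, 15.7, 22.1 and 22.4 under SCN, 13.5, 6.19 and 30.5 under SBA and 3.27, 89.6 and 38.0 under SCN:SBA. By 30 dpi they were 0.718 and 0.941 in the control, 0, 0 and 0.125 under SCN, 1.06, 3.89 and 1.81 under SBA and 0, 5.99 and 0.212 under SCN:SBA. The transcript was thus at or near 0 in the 3 resistant roots with SCN alone at 30 dpi, and the SCN:SBA pair was the only one of its 8 in which the 2 times overlapped.

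Glyma.11g195200 had 382, 37.1 and 46.6 CPM in the PI518671 control at 5 dpi and 2.87, 2.36 and 1.88 CPM in that control at 30 dpi. In the MN1806CN control it had 20.7, 48.2 and 58.6 CPM at 5 dpi and 0.828 and 1.03 CPM at 30 dpi. Replicate 1 of the susceptible control at 5 dpi was the highest library of its group for both genes. Across the 16 groups, after the mean of each time was removed, the group medians of the 2 genes had a Pearson r of 0.87. Rank 4, on chromosome 12, followed both (r = 0.85 with rank 1 and 0.75 with rank 2). These 3 members were also the most variable among replicates of the 200, with within-group SDs of 1.21, 1.20 and 1.31 on the log2(CPM + 1) scale against a median of 0.41 over members. The groups share libraries and depth, and the r values describe 16 points only. The members most like rank 1, rank 2 and rank 4 otherwise had r of 0.73 (rank 159), 0.57 (rank 167) and 0.61 (rank 167).

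The other high scores held steadier genes. Rank 5, on chromosome 17, was between 53.7 and 245 CPM in the 24 libraries at 5 dpi and between 26.8 and 59.3 CPM in the 23 at 30 dpi, and no pair overlapped. Its within-group SD was 0.43. Rank 8, on chromosome 1, was likewise without overlap in all 8 pairs, and ranks 3, 7 and 10 in 7 of them. Ranks 6 and 9 overlapped in 2 and 3 pairs.

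**Figure D3:**
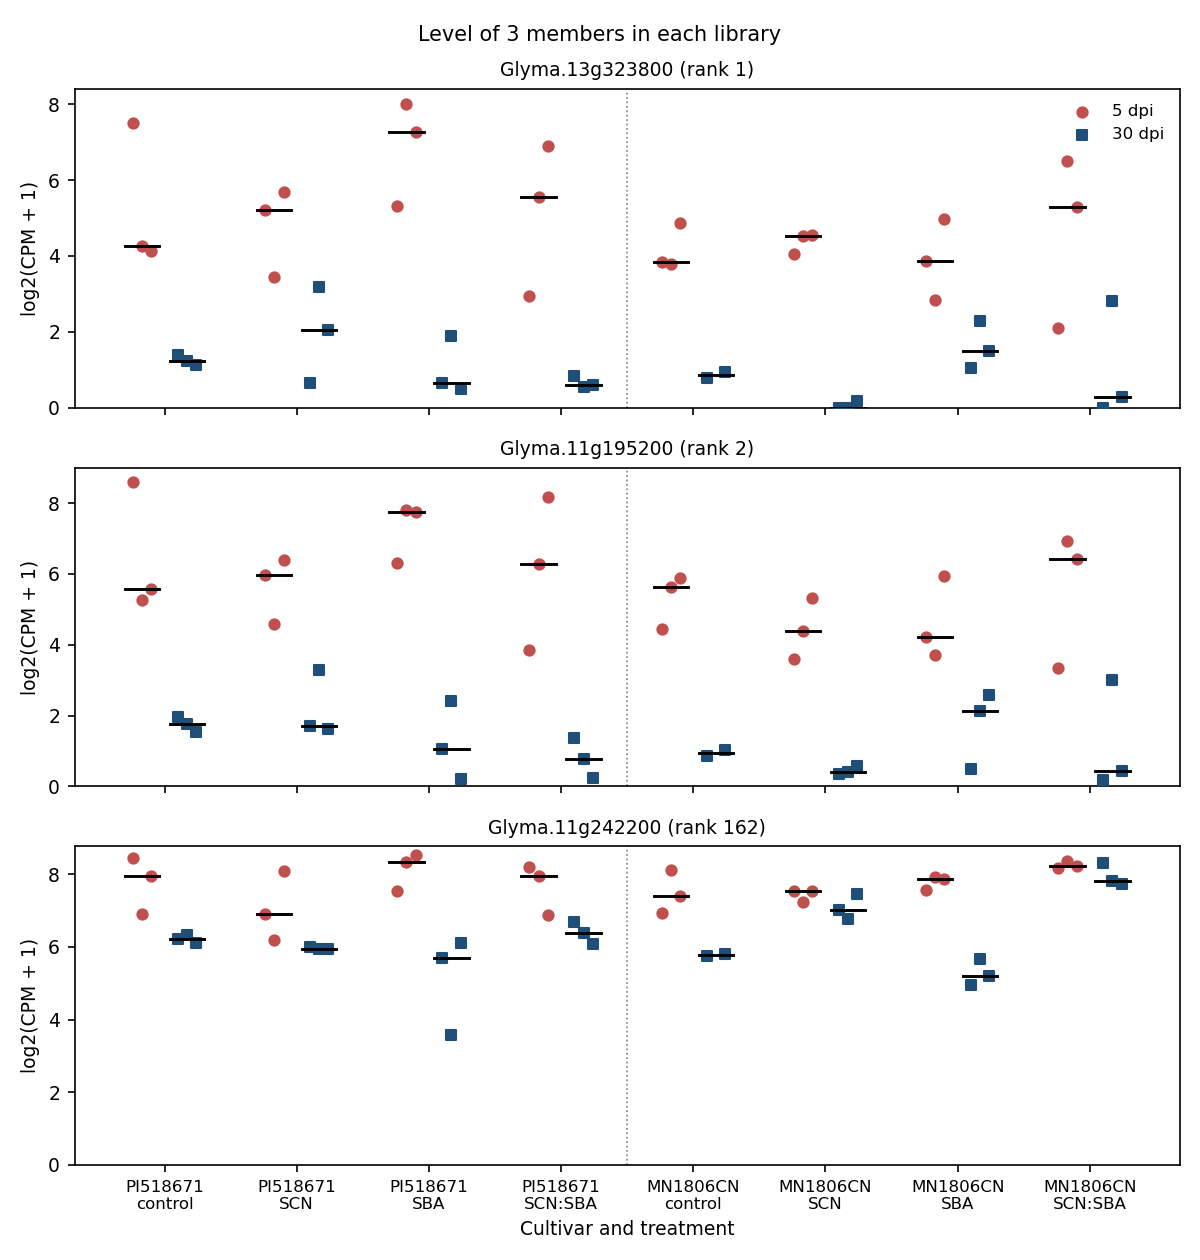
Level of 3 members in each library (y axis, log2(CPM + 1)) by cultivar and treatment (x axis), for ranks 1, 2 and 162. Each point is a library, red circles 5 dpi and blue squares 30 dpi, and bars are group medians. Ranks 1 and 2 vary widely among replicates but fall in all groups, whereas rank 162 stays high at 30 dpi in MN1806CN SCN:SBA (209 to 315 CPM).

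The 8 most abundant members had scores of 0.41 to 0.65, around the median of 0.48. Counts were not divided by transcript length, so levels are compared within a gene only. Rank 106, on chromosome 20, had 1023, 1211 and 1755 CPM in the PI518671 control at 5 dpi and 406, 501 and 404 CPM at 30 dpi, with a score of 0.47. Rank 78, on chromosome 19, was the steadiest of all members, with a within-group SD of 0.20. Its control libraries of MN1806CN had 180, 265 and 212 CPM at 5 dpi and 89.6 and 98.1 CPM at 30 dpi. Rank 37, on chromosome 2, fell further, from a median of 485 CPM over the 5 dpi libraries to 120.3 CPM over those of 30 dpi, and rank 72, on chromosome 8, from 218 to 64.2 CPM. The remaining abundant members were ranks 138, 41, 162 and 58.

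The members were spread over all 20 chromosomes, from 3 on chromosome 12 to 17 on chromosome 8. Per 1000 genes past the filter this was 1.65 on chromosome 12 and 6.53 on chromosome 2, the 2 extremes. Only 3 couples of members carried adjacent identifiers, on chromosomes 5 (ranks 93 and 79), 9 (ranks 173 and 164) and 20 (ranks 87 and 106). A further 2 couples lay 5 steps apart, ranks 104 and 85 on chromosome 1 and ranks 78 and 18 on chromosome 19. Where such neighbours are close copies, reads can be shared between them by the quantification, and this was not tested. The members' replicates varied slightly more than those of other genes, with a median within-group SD of 0.41 against 0.36 in the 12575 other genes between the members' quartiles of level.

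Within a time point, the contrasts among treatments and between cultivars were not part of the rule and were tested for all 43122 genes past the filter. The rule used the same libraries, however. A member had to stay above its 30 dpi level in every treatment, which limits how far it can move within a time. The rule can also favour a direction. In the PI518671 control pair the median difference over all genes past the filter was -0.28, whereas the lowest member was at 0.38. The rule can thus favour genes that were high in the earlier PI518671 controls or low in the later ones. How far this shaped the calls was not tested. Comparisons with a control share its libraries.

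In susceptible roots at 5 dpi, nearly all members called among treatments were below the control in the 3 infested groups. The edgeR quasi-likelihood test called 63 of the 200 members (31.5%) different among treatments at an adjusted p under 0.05, against 17.8% of all genes tested. Of these, 61 (30.5%) were below the control under SCN, SBA and SCN:SBA alike, against 7.97% of all genes. Because the rule can favour genes high in these controls, part of the difference from all genes may come from the choice of members. The size of that part was not tested. The median log2 fold change over the 200 members was -1.14 under SCN, -0.58 under SBA and -0.69 under SCN:SBA, whereas the medians of all genes were 0.08, 0.19 and 0.13. By CPM on column totals, PI518671 SCN had the lowest median of the 8 groups of both cultivars at 5 dpi for 129 members. The share over all genes is not given.

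Rank 126, on chromosome 7, had 42.4, 30.1 and 42.9 CPM in these controls, 9.05, 5.51 and 13.5 CPM under SCN, 14.3, 22.4 and 16.4 CPM under SBA and 10.6, 9.37 and 7.71 CPM under SCN:SBA. Every infested library was below every control. The log2 fold changes against control were -2.54, -1.73 and -2.67 (edgeR adjusted p = 0.000359 for the 3 together). Rank 62, on chromosome 18, had 27.4, 14.4 and 24.6 CPM in the controls and at most 9.25 CPM in the 9 infested roots, with log2 fold changes of -2.46, -2.18 and -2.23 (edgeR adjusted p = 0.000368). Rank 138, the second of the abundant members, on chromosome 13, fell with them. It had 1225, 1431 and 1562 CPM in the controls, 281, 306 and 513 CPM under SCN, 693, 704 and 776 CPM under SBA and 335, 438 and 655 CPM under SCN:SBA (edgeR adjusted p = 0.00575).

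The calls rest on the controls, of which replicates 2 and 3 stood apart. Without replicate 2 the test called 30 members (15%, against 8.13% of all genes), and without replicate 3 it called 33 (16.5%, against 9.22%). Without all 3 controls it called none of the 200 and 687 of all genes (1.59%), with 43 members and 5485 of all genes at an unadjusted p under 0.05. Scaling by column totals alone gave 35 calls (17.5%, against 12.8% of all genes), of which 32 were below control under SCN, 29 under SBA and 31 under SCN:SBA. Shares of all genes by direction are not given for this scaling. The medians over members then were -0.69 under SCN, 0.01 under SBA and -0.10 under SCN:SBA, with all genes at 0.48, 0.71 and 0.65. The direction of the median under SBA thus turns with the scaling, and the lower level under SCN does not.

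In susceptible roots at 30 dpi none of the 200 members was called by edgeR, against 0.00232% of all genes. An unadjusted edgeR p under 0.05 was found for 82 members and for 8148 of the 43122 genes tested. DESeq2 called 56 members (28%, against 9.68% of all genes). The median log2 fold changes over members were -0.24 under SCN, 0.15 under SBA and 0.16 under SCN:SBA. With column totals alone the median under SBA was -0.03, of the opposite sign. One library decided the edgeR count: without SBA replicate 3, 78 members (39%) and 26.2% of all genes were called. Without SBA replicate 1 a single member (0.5%) was called, against 0.146% of all genes. The medians over members without SBA replicate 3 were -0.24, 0.13 and 0.16, nearly those with it.

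In resistant roots at 5 dpi, the medians of the members were again below the control, but edgeR called few of them. The median log2 fold changes over members were -0.45 under SCN, -0.45 under SBA and -0.60 under SCN:SBA, against 0.01, 0.03 and 0.04 over all genes. The edgeR test called 5 members (2.5%), against 0.814% of all genes, and all 5 were below the control under the 3 treatments, against 0.387% of all genes. Rank 189, on chromosome 2, had 26.9, 37.7 and 32.8 CPM in the controls, 14.1, 14.4 and 13.5 CPM under SCN, 21.5, 19.5 and 27.4 CPM under SBA and 18.03, 16.6 and 14.7 CPM under SCN:SBA. SBA alone overlapped the control. Its log2 fold changes were -1.34, -0.65 and -1.24 (edgeR adjusted p = 0.0278). Rank 79, on chromosome 5, had 24.95, 39.8 and 37.3 CPM in the controls and 13.6 to 20.5 CPM in the 9 infested roots, with an edgeR adjusted p of 0.0383. Both calls were lost when some libraries were left out, with adjusted p up to 0.0997 and 0.148. DESeq2 called 87 members (43.5%, against 18.4% of all genes), and edgeR with the replicate number as a block 49 (24.5%, against 8.81%). The count of 5 ranged from 0 to 21 when 1 library at a time was left out, against 0.0139% to 3.09% of all genes. It was 0 without SCN replicate 2 or 3, any SCN:SBA replicate or control replicate 3, 2 without control replicate 2, 3 without SBA replicate 1, 10 without SCN replicate 1 or control replicate 1, and 21 without SBA replicate 2.

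In resistant roots at 30 dpi most called members were above the control under SCN:SBA and SCN, and more were below it than above it under SBA. The edgeR test called 84 members (42.0%), against 16.7% of all genes. Of these, 82 (41.0%) were above the control under SCN:SBA, against 7.97% of all genes. Above the control under SCN were 73, against 7.46% of all genes, and under SBA 34, against 8.17%, while 50 were below the control under SBA. Over all genes, 3521 of the 7205 called were above the control under SBA. The median log2 fold change over the 200 members was 0.91 under SCN:SBA, 0.47 under SCN and -0.08 under SBA, with all genes between 0 and 0.05. By CPM on column totals, MN1806CN SCN:SBA had the highest median of the 8 groups of both cultivars at 30 dpi for 112 members. The share over all genes is not given.

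Glyma.11g242200, rank 162 on chromosome 11, had 52.6 and 54.3 CPM in the 2 resistant controls at 30 dpi, 129, 107 and 173 CPM under SCN, 29.6, 49.4 and 35.7 CPM under SBA and 315, 223 and 209 CPM under SCN:SBA. The 4 groups did not overlap. The log2 fold changes against control were 1.24 under SCN, -0.52 under SBA and 1.98 under SCN:SBA (edgeR adjusted p = 0.000705 for the 3 together). In susceptible roots at 30 dpi it had 73.7, 78.8 and 67.8 CPM in the control and 101, 81.7 and 66.2 CPM under SCN:SBA, groups that overlapped. The level of the resistant SCN:SBA roots at 30 dpi came near that of 5 dpi, where they had 285, 325 and 297 CPM.

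Glyma.04g019200, rank 52 on chromosome 4, had 1.16 and 1.13 CPM in the resistant controls at 30 dpi, 2.26, 1.33 and 1.38 CPM under SCN, 0.125, 0.315 and 0.192 CPM under SBA and 3.02, 4.43 and 3.67 CPM under SCN:SBA. SBA alone was below all other groups and SCN:SBA above them. The log2 fold changes were 0.40, -2.53 and 1.47 (edgeR adjusted p = 0.00106). At these levels each SBA library held few counts of the gene. Rank 10, with 0.276 and 0.381 CPM in the controls and 2.77, 1.54 and 1.602 CPM under SCN:SBA, was also called (edgeR adjusted p = 0.0346).

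**Figure D4:**
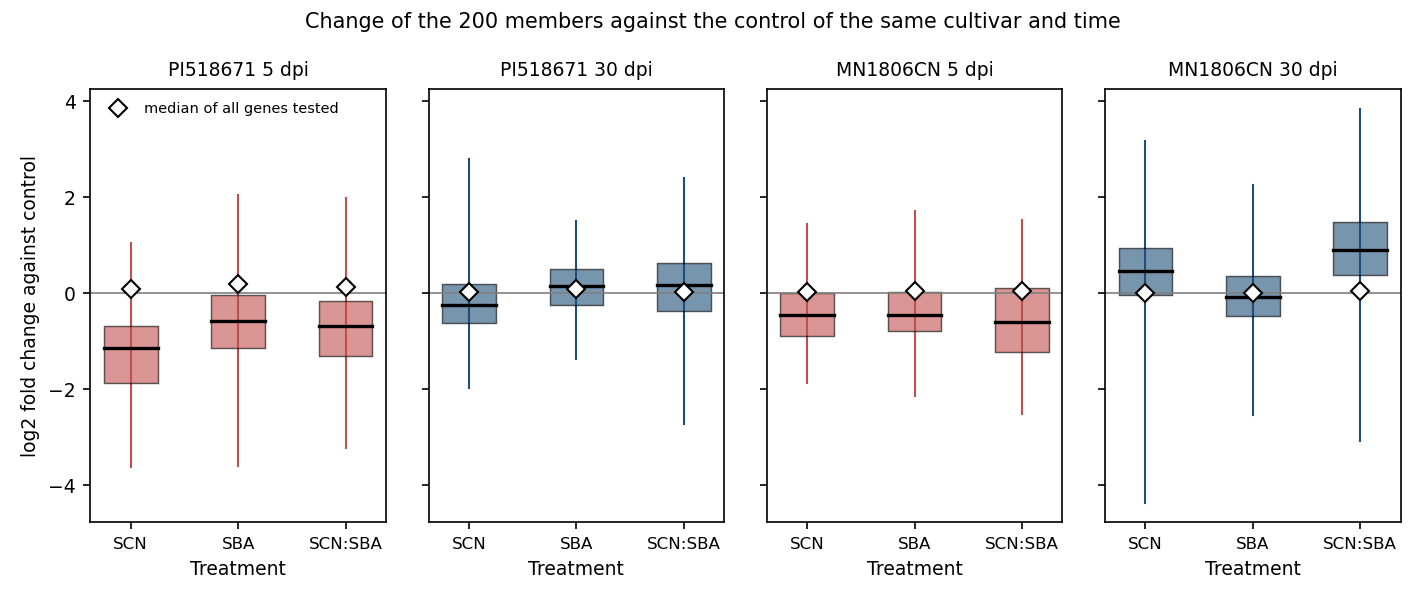
log2 fold change against the control of the same cultivar and time (y axis) for the 200 members, by treatment (x axis), in the 4 combinations of cultivar and time. Boxes span the quartiles with the median as a line, thin lines run from the lowest to the highest member, and diamonds are the medians of all genes tested. The member medians lie at -1.14, -0.58 and -0.69 in PI518671 at 5 dpi and at 0.47, -0.08 and 0.91 in MN1806CN at 30 dpi.

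Without the SCN:SBA libraries the test among the other 3 groups of MN1806CN at 30 dpi called 30 members, against 3.82% of all genes, 27 of them above the control under SCN. With only SBA replicate 3 left out the test called 44 members (22%, against 11.0% of all genes). Scaling by column totals alone gave 102 calls (51%, against 19.9% of all genes). Of these, 101 were above the control under SCN:SBA and 59 below it under SBA. Shares of all genes by direction are not given for these alternative fits, and nothing is read from their directions. The medians under SCN:SBA then were 1.13 over members and 0.28 over all genes.

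The members called in susceptible roots at 5 dpi and in resistant roots at 30 dpi shared 26 genes, which is 41.3% of the former and 31.0% of the latter. Over all genes the shares were 40.8% and 43.4%, and nothing is read from the overlap. In no comparison among treatments were 76 members (38%) called, against 72.3% of all genes. When the treatment differences of the cultivars were compared as an interaction, a test added after the values were seen, edgeR called 45 members (22.5%) at 30 dpi, against 7.5% of all genes, and 11 (5.50%) at 5 dpi, against 10.3% of all genes. Rank 52 was among those called at 30 dpi (edgeR adjusted p = 0.00341), as was rank 162 (0.0475). The 30 dpi count fell to 0 without replicate 1 of every group, against 0.111% of all genes. It fell to 5 (2.5%) without replicate 2, against 2.22% of all genes and so near the background. Without replicate 3 it was 5 (2.5%), against 1.32%. At 5 dpi the count fell to 0 without replicate 2, without replicate 3 or without the control libraries, against 0.169%, 0.645% and 0.00232% of all genes.

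Between the cultivars, more members were higher in resistant than in susceptible roots. Reads of both cultivars were counted against transcripts named for the susceptible cultivar. The paper's percentages of mapped reads were mostly lower in MN1806CN than in PI518671 libraries, though the ranges overlapped. How far this reference shaped the differences between cultivars was not tested. At 5 dpi the edgeR test of MN1806CN minus PI518671, averaged over treatments, called 89 members (44.5%), against 23.0% of all genes. Of these, 78 (39.0%) were higher in MN1806CN, against 12.3% of all genes, and 11 (5.50%) lower, against 10.7%. At 30 dpi it called 95 members (47.5%), against 42.6% of all genes, a share near the background. There 73 (36.5%) were higher, against 18.2%, and 22 (11.0%) lower, against 24.5%. The median log2 difference over the 200 members was 0.38 at 5 dpi and 0.31 at 30 dpi, and that of all genes -0.05 and 0.00.

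A total of 49 members (24.5%) were called at both times, against 12.8% of all genes. Of these, 41 (20.5%) were higher in MN1806CN at both, against 5.41% of all genes, 5 were lower at both, against 6.06%, and 3 were opposite, against 1.34%. Rank 155, on chromosome 9, was higher in resistant roots at both times. At 5 dpi it ranged from 2.22 to 8.48 CPM (median 3.25) in the 12 susceptible libraries and from 4.20 to 45.1 CPM (median 25.5) in the 12 resistant ones, which overlapped through 1 SCN:SBA library. At 30 dpi no resistant library (3.64 to 9.26 CPM, n = 11) overlapped a susceptible one (1.14 to 2.83 CPM, n = 12). The log2 differences were 2.48 (SE 0.26, edgeR adjusted p = 1.82e-06) and 1.49 (SE 0.15, edgeR adjusted p = 2.72e-07).

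Rank 193, on chromosome 2, went the other way. It ranged from 2.55 to 7.60 CPM in susceptible roots and from 1.01 to 2.96 CPM in resistant roots at 5 dpi, and from 1.62 to 4.31 CPM and 0 to 0.665 CPM at 30 dpi. The log2 differences were -1.77 (SE 0.19, edgeR adjusted p = 1.63e-06) and -3.88 (SE 0.31, edgeR adjusted p = 2.81e-08). The larger one rested on few counts in the resistant roots, and an effect of the reference on these counts was not tested. Rank 123, on chromosome 2, had the largest difference at 5 dpi, 2.82 (SE 0.31, edgeR adjusted p = 2.49e-06), with controls of 14.1, 11.6 and 5.30 CPM in PI518671 and 91.6, 117 and 172 CPM in MN1806CN. At 30 dpi its controls had 2.12, 2.56 and 2.67 CPM and 1.27 and 3.24 CPM, which overlapped. Rank 8 was higher in MN1806CN by 0.91 at 5 dpi (SE 0.26, edgeR adjusted p = 0.0152) and 1.92 at 30 dpi (SE 0.20, edgeR adjusted p = 4.66e-07).

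Ranks 1 and 2 were lower in resistant roots at 5 dpi, with log2 differences of -1.51 (SE 0.51, edgeR adjusted p = 0.0378) and -1.58 (SE 0.49, edgeR adjusted p = 0.0255). At 30 dpi their log2 differences were -1.20 and -0.74 with edgeR adjusted p of 0.170 and 0.344. Among the other members with the smallest adjusted p, rank 85 on chromosome 1 had a log2 difference of 2.12 at 5 dpi and ranks 81, on chromosome 18, and 93, on chromosome 5, differences of -2.45 and -0.95. At 30 dpi rank 200 was higher by 0.90, and ranks 94 and 158 had differences of -1.46 and -0.94.

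**Figure D5:**
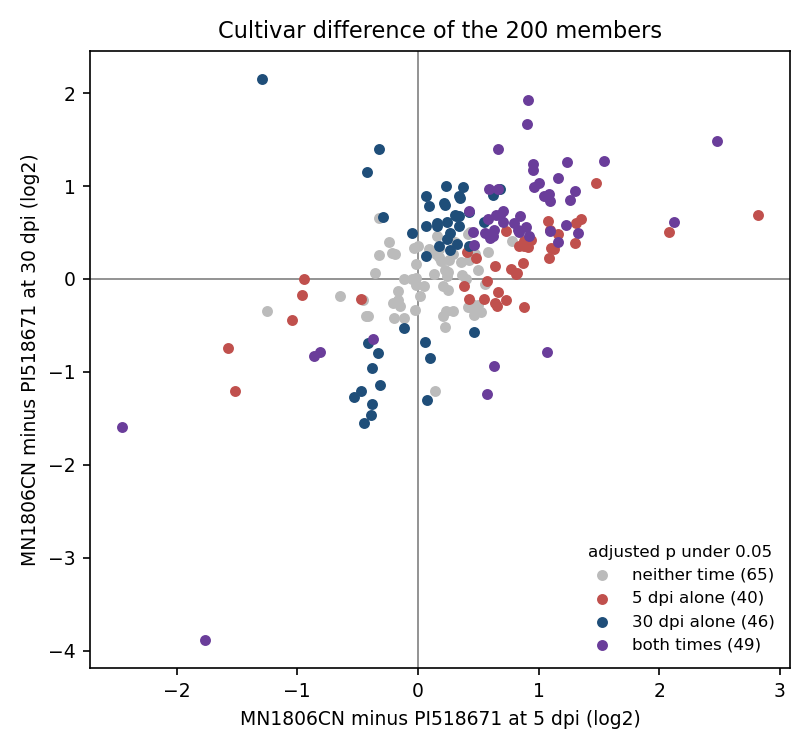
log2 difference between cultivars, MN1806CN minus PI518671, at 5 dpi (x axis) and 30 dpi (y axis), averaged over the 4 treatments. Each point is a member, coloured by the times at which the edgeR adjusted p was under 0.05: 49 members at both times, 40 at 5 dpi alone, 46 at 30 dpi alone and 65 at neither. Most coloured points lie above and right of 0.

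These counts depended on the treatments entered. With the control libraries alone, 26 members (13%) were called at 5 dpi, against 9.71% of all genes, 18 of them higher and 8 lower in MN1806CN. At 30 dpi 28 (14%) were called, against 14.7% of all genes, a count near the background. Of these, 10 were higher and 18 lower in MN1806CN, the reverse of the direction averaged over treatments. Without the SCN:SBA libraries the 30 dpi count was 63 (31.5%), against 30.3% of all genes and again near the background, with 39 higher and 24 lower. Without the controls the counts were 95 at 5 dpi (47.5%, against 23.4% of all genes), 89 of them higher, and 99 at 30 dpi (49.5%, against 38.0%), 83 of them higher. Shares of all genes by direction are not given for these settings, so the directions are a description only. In all, 29 of the 200 members (14.5%) were called in none of the 4 comparisons among treatments and the 2 between cultivars, against 37.8% of all genes.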

How the data were processed

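Libraries made from whole-root RNA with a NEBNext kit were read from one end on an Illumina instrument. After trimming with Btrim64, the authors estimated transcript abundance with Salmon 0.9.1 against the Wm82.a2.v1 set of primary transcripts. This set is named for the susceptible cultivar and served for the libraries of both cultivars. The deposited table holds these estimated counts for each gene and library, neither normalized nor filtered. Quality control used FastQC 0.11.3 and MultiQC 1.3 per the labels. The estimated counts were rounded to whole numbers for tests, and used as deposited for CPM.

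Groups were taken from the sample titles. Genes at 0.5 CPM or more in at least 1 library were tested, which is 4.24 counts in the smallest and 24.0 in the largest library, so low levels rest on few counts, and counting error covers only part of the variation. Tests used edgeR 4.0.16 (TMM, quasi-likelihood F test, two-sided) in R 4.3.3, with Benjamini-Hochberg adjustment over 43122 genes and a threshold of 0.05. Treatments were tested together as 3 coefficients against control within a cultivar and time, and cultivars within a time as the mean over treatments. The SE of a log2 difference is its size over the square root of F. Fits were tested on simulated data. Alternatives were other size factors (RLE and column totals alone), other filters, DESeq2 1.42.0, a term for the replicate number, and libraries, treatments or replicates left out.

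The 200 members, the lists and the rule for naming were chosen with earlier results of these data known. Members were named if they had the 10 highest scores, the 8 highest median CPM, the 3 smallest adjusted p in a direction between cultivars, or the 2 smallest among treatments. Lists of functions and tissue markers could not be applied, since 0 identifiers matched the RefSeq table (Glycine_max_v4.0). No sequences were used here. No libraries of a group agreed within sampling noise.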

Additional observations from a re-analysis of the deposited data

Results flagged for a closer look

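Whether treatment differences differ between the cultivars was tested with 3 interaction terms in the edgeR fit of each time point, a comparison added after seeing the data. At 30 dpi 45 of the 200 members (22.5%) were called, against 7.5% of all genes. The change under SCN was higher in MN1806CN than in PI518671 for 44 of them, that under SCN:SBA for 43 and that under SBA for 5, with median differences of 1.35, 1.09 and -0.66 on the log2 scale. At 5 dpi 11 members (5.5%) were called, fewer than the 10.3% of all genes, with 6 higher and the rest lower in MN1806CN under each treatment. Directions over all genes called are not given at either time, so these directions are not read as particular to the members. With 1 replicate number left out the counts were 0 to 5 at 30 dpi, against 0.111% to 2.22% of all genes. At 5 dpi they were 0 to 13, against 0.169% to 9.32%.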

How the results depend on the processing

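The membership depended on the rule. Of the 200 members, 76 were taken without the PI518671 control pair, 75 without the MN1806CN SCN:SBA pair and 105 to 113 when replicate 1, 2 or 3 of every group was left out, whereas 143 to 193 were taken with a pseudocount of 0.25 or 4, group means, TMM sizes or a minimum of 1 CPM. In all, 34 were taken under the 10 alternative rules, 32 of them among the 50 highest scores.

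Counts of members called moved with the tool. DESeq2 called 104 (52%, against 30.3% of all genes) in PI518671 at 5 dpi and 56 (28%, against 9.68%) in PI518671 at 30 dpi. In MN1806CN at 5 dpi it called 87 (43.5%, against 18.4%). For the interaction it called 38 (19%, against 19.9% of all genes) at 5 dpi and 79 (39.5%, against 15.4%) at 30 dpi. Column totals alone gave 35 (17.5%, against 12.8% of all genes) in PI518671 at 5 dpi. With the replicate number as a block the count was 49 (24.5%, against 8.81% of all genes) in MN1806CN at 5 dpi and 54 (27%, against 11.1%) in MN1806CN at 30 dpi. The study took its replicates from blocks of a randomized block design, but no source used here ties a number to a block. Pooled over both cultivars, libraries with the same number had a median correlation of 0.02 over 84 couples at 5 dpi and -0.01 over 77 at 30 dpi. Couples with different numbers had medians of -0.01 and 0.01, and 15 of 47 libraries correlated best with their own number. The numbers were therefore not taken to pair the samples, but a pooled median cannot show whether blocks acted within a cultivar.

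Among groups left out, no controls gave 0 in PI518671 at 5 dpi (1.59% of all genes) and 0 for the interaction at 5 dpi (0.00232%). No SCN:SBA libraries gave 30 (15%, against 3.82% of all genes) in MN1806CN at 30 dpi. They gave 63 (31.5%, against 30.3%) between cultivars at 30 dpi and 15 (7.5%, against 1.95%) for the interaction at 30 dpi. Controls alone gave 26 (13%, against 9.71% of all genes) between cultivars at 5 dpi and 28 (14%, against 14.7%) at 30 dpi. Leaving out 1 library at a time gave 30 to 86 in PI518671 at 5 dpi (8.13% to 28.6% of all genes) and 0 to 78 in PI518671 at 30 dpi (0% to 26.2%). In MN1806CN it gave 0 to 21 at 5 dpi (0.0139% to 3.09%) and 44 to 75 at 30 dpi (11.0% to 15.8%). Leaving out 1 replicate number gave 52 to 57 between cultivars at 5 dpi (10.7% to 15.5% of all genes) and 62 to 89 at 30 dpi (25.4% to 40.8%). For the interaction it gave 0 to 13 (0.169% to 9.32%) and 0 to 5 (0.111% to 2.22%). The cause was not tested.

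Of the counts under all alternatives 84 stayed within 1.5 times the value given and 45 moved. The members named from tests kept their call in 234 combinations of member and alternative and lost it in 20, and no direction turned. Medians of change moved by less than the spread between replicates in 254 combinations and by more in 3, all in PI518671 at 5 dpi under column totals alone. Within that spread, column totals turned the PI518671 SBA median at 30 dpi from 0.15 to -0.03 and brought the MN1806CN SCN:SBA median at 5 dpi from -0.60 to -0.34. With 2 control libraries, MN1806CN at 30 dpi has the thinnest reference, and members under 1 CPM rest on few counts.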
